A study of Mus musculus with 11 samples.

Results

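The leukocyte integrins were described here through 10 genes, Itgam, Itgax, Itgal, Itgae, Itgav, Itga4, Itgb2, Itgb5, Itgb7 and Itgb8, chosen by symbol from the 21860 genes of a bulk RNA sequencing table. All 10 were found once each, and all 10 passed the filter on low values. The table covered 11 samples of CD11b-low EpCAM+ cells sorted on day 6 from cultures of monocytes, which had been isolated from whole mouse bone marrow with magnetic beads. Such cultures serve as a model of monocyte-derived Langerhans cells, the phagocytes of epithelia. GM-CSF, which keeps monocytes alive in culture, was present throughout (20 ng/ml). The cytokines that turn monocytes into Langerhans cells, TGFβ (5 ng/ml) with IL-34 (8 µg/ml), were given to 10 of the 11 samples. These 10 fell into 4 groups, with 2 samples of TGFβ/IL-34, 2 of TGFβ/IL-34/FICZ, 3 of TGFβ/IL-34/Jag1 and 3 of TGFβ/IL-34/Jag1/FICZ. The last group was a single sample with GM-CSF and Jag1 but neither TGFβ nor IL-34, called Jag1 only. Jag1 is a Notch ligand, here carried by the mouse stromal cell line OP9. FICZ is a ligand of the aryl hydrocarbon receptor (Ahr), an agonist in the terms of the study and an antagonist in the deposited design text. Its dose and the number of mice per sample were not given in the sources used here. The study lists purchased B6 mice but does not name the strain behind these cultures. It states that mice of both sexes served for its cultures of bone marrow. The cell type label calls every sample a co-culture with OP9, those without Jag1 included, whereas the protocol describes monocytes plated alone as well as on OP9, without saying which samples had which. The sample descriptions hold the letters Mo for the samples without Jag1 and Jag for those with it, with no explanation of these letters. Sums of OP9 stroma genes by group are given below. In the comparisons of Jag1, its effect and that of contact with OP9 cells therefore cannot be told apart.

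Integrins are adhesion receptors made of 1 alpha and 1 beta chain, and neither chain reaches the cell surface well without a partner. The beta chain groups them. The beta 2 chain (Itgb2, CD18) pairs with Itgal (LFA-1), Itgam (Mac-1, complement receptor 3) and Itgax (CD11c, complement receptor 4), which bind ICAM molecules and complement fragments and are found on leukocytes. The beta 7 chain (Itgb7) pairs with Itgae (CD103), whose ligand is E-cadherin, the adhesion molecule of keratinocytes and Langerhans cells, and with Itga4, which then binds the gut homing ligand MAdCAM-1. Itga4 also pairs with the beta 1 chain to form VLA-4, the receptor of VCAM-1 and fibronectin. The alpha v chain (Itgav) pairs with Itgb5, a vitronectin receptor used in uptake of apoptotic cells, and with Itgb8, which releases active TGFβ from its latent complex. Langerhans cells depend on TGFβ. The study places integrins that activate it at sites of the epidermis where Langerhans cells gather. Its Itgb8 signal was in keratinocytes of the upper hair follicle, which are not the cells measured here.

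Itgam protein was part of the sort gate, since CD11b is its product, so its levels were read within cells already selected on it. The deposited normalized counts of a sample added up to 21.3 to 27.8 M, and low values were spaced so that 1 read was worth 0.894 to 1.15 of them. At a listed 0 as many as 3 reads could go unseen, which is worth 2.68 to 3.45 normalized counts; this limit is for counting error alone. Cyp1a1, a target of Ahr, stood at 1933 to 2079 and 604 to 671 in the groups with FICZ and at 68.1 to 100.1 and 0 to 0.985 in TGFβ/IL-34 and TGFβ/IL-34/Jag1. Cyp1b1, another target, lay at 2556 to 2570.2 in TGFβ/IL-34, 3780.1 to 7391 with FICZ, 1.04 to 4.76 with Jag1 and 2384 to 2996 with both. Epcam, used in the sort, stood at 657.5 in the Jag1 only sample and at 3952 to 14377 in the others, while Cd207, which encodes langerin of Langerhans cells, was at 154 to 157 in TGFβ/IL-34, 6.21 to 6.90 with FICZ, 1366 to 1784 with Jag1 and 8.39, 6.29 and 132 with both. The 2 TGFβ/IL-34/FICZ samples were the least alike of any same-group pair (Pearson's r across genes 0.922, against up to 0.980), so values that rest on them are given for each. The sample descriptions hold a string that was read here as the flow cell, although no source names it so. The labels carry 3 experiment codes, AA45, AA47 and AA48, and no source says that samples of a group came from separate animals. P-values therefore measure the spread between these samples only, and in bulk RNA fewer cells of a type cannot be told apart from less RNA per cell.

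The promoters of the alpha 4, beta 5 and beta 7 genes are printed because these 3 members and Itgb2 were the ones that passed the test in any comparison, and Itgb2 has no entry in the promoter table used. Each line is the RefSeq window from 250 bases before to 50 bases after the gene's start (table build GRCm38.p6), read 5′ to 3′ on the strand of the gene, with the position of its exact match in GRCm39. Capitals mark the letters of 5 motifs searched on both strands: GCGTG (the core of the Ahr element), GTGGGAA (Rbpj, the DNA-binding partner of Notch), CAGACA (Smad, downstream of TGFβ), TGTGGT (Runx) and GAGGAAG (PU.1).
Itga4 (chr2:79085520-79085819, plus strand): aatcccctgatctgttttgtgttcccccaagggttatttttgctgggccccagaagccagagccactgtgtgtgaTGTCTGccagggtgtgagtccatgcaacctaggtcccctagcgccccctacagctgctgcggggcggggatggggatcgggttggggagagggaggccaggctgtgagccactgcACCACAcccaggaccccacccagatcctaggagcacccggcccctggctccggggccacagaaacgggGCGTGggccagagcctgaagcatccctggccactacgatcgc
Itgb5 (chr16:33649785-33650084, plus strand): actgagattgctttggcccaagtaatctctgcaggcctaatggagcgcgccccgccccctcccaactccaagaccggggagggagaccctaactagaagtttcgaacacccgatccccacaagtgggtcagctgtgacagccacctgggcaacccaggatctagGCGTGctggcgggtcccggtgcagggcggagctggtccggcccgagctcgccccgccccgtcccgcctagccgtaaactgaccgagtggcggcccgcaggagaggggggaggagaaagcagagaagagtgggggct
Itgb7 (chr15:102140321-102140620, minus strand): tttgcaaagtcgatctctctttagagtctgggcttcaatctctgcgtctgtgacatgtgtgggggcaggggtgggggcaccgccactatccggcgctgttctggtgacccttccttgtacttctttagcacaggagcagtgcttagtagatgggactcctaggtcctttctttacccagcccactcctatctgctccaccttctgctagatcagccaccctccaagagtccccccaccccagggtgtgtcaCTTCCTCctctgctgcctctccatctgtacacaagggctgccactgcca

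In the Itga4 window the Ahr core began at base 9 after the start on the gene's strand, and Smad and Runx letters lay on the opposite strand at −175 and −60. The Itgb5 window held the Ahr core at −86 on the gene's strand, and the Itgb7 window held the PU.1 letters on the opposite strand at base 2 after the start. None of these matches overlapped another, although GCGTG and GTGGGAA can share letters. Of the 7 members with an entry, 3 held the Ahr core (Itgax, Itga4 and Itgb5), beside 32.4% of all 32851 windows. The Rbpj letters were in none of the 7 and in 6.38% of all windows. Smad letters were in 3 of the 7 (21.0% of all windows), Runx letters in 2 (16.8%) and PU.1 letters in 3 (13.6%). A match is a description of letters and no match says nothing of a factor.

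The order of the genes by level was set per kilobase of exon (normalized counts divided by union exon length), the only scale on which different genes were compared. Itgax led in 3 of the 5 groups, with means of 5551 per kilobase in TGFβ/IL-34, 3658 in TGFβ/IL-34/Jag1 and 2608 in TGFβ/IL-34/Jag1/FICZ. In TGFβ/IL-34 it was followed by Itgae (2325), Itgb7 (1703), Itgb2 (1694), Itgam (839), Itgal (421), Itga4 (234), Itgav (133), Itgb5 (119) and Itgb8 (4.32). Only Itgb7 and Itgb2 overlapped between samples as neighbours in that order.

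In TGFβ/IL-34/Jag1, Itgb7 stood eighth of the 10, at 174 per kilobase, and Itgam was next to Itgax at 2246. There 7 of the 9 neighbouring pairs overlapped between samples, and the 2 that did not were Itga4 above Itgb5 and Itgav above Itgb8. With FICZ added to Jag1, the order was Itgax, Itgae (1399.7), Itgam (1393), Itgb7 (1266), Itgb2 (1055), Itga4 (655), Itgal (356), Itgav (129), Itgb5 (68.4) and Itgb8 (2.72), with overlap in the 3 neighbouring pairs from Itgae to Itgb2. In TGFβ/IL-34/FICZ, Itgb7 (3359) and Itgax (3326) headed the order and were 1 of the 6 neighbouring pairs, of 9, that overlapped. The Jag1 only sample was headed by Itga4 at 1126 per kilobase, ahead of Itgam (969.8), Itgax (954) and Itgb2 (877). Itgb8 was lowest in every group. Dividing by the longest coding transcript instead kept 8 of the 10 members at their rank in 4 groups and 4 of the 10 in TGFβ/IL-34/FICZ.

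**Figure D1:**
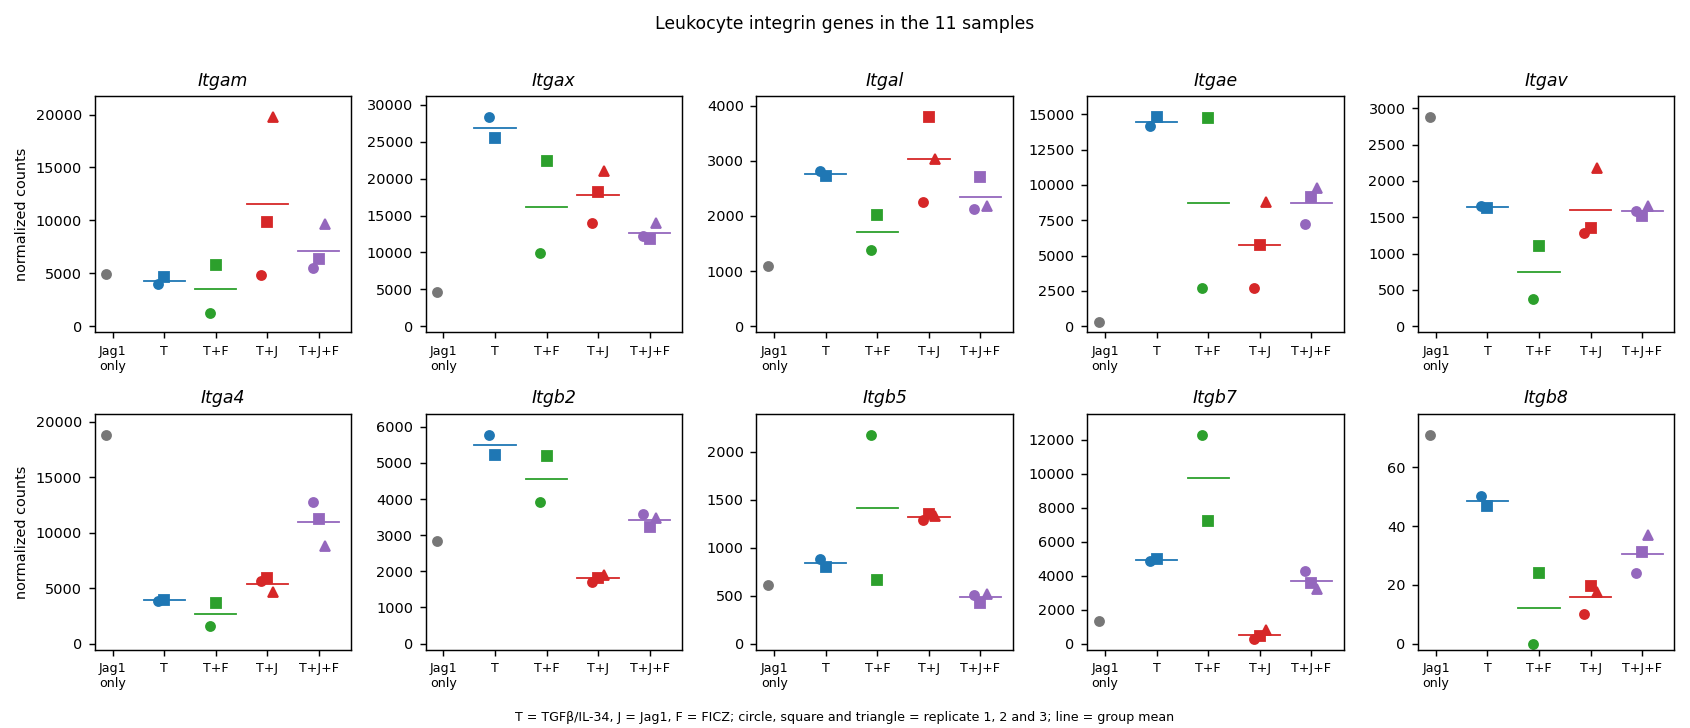
Normalized counts (y axis, linear, own scale per gene) of the 10 leukocyte integrin genes in 11 samples, by culture group (x axis, T for TGFβ/IL-34, J for Jag1, F for FICZ). Each symbol is 1 sample and each line a group mean; the 3 TGFβ/IL-34/Jag1 samples are the lowest of all for Itgb7 and Itgb2, and the Jag1 only sample is the highest for Itga4, Itgav and Itgb8.

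Each of 6 comparisons was fitted over all 13095 tested genes on log2(normalized count + 1), a scale that understates the change of low genes, and a gene was called at an adjusted p under 0.05 (limma, Benjamini-Hochberg). Adding Jag1 without FICZ set TGFβ/IL-34/Jag1 against TGFβ/IL-34, and 2 of the 10 members were called, both lower, beside 6.6% of all tested genes (2.64% higher, 3.96% lower). Adding FICZ in the presence of Jag1 gave 4 calls, 3 higher and 1 lower, beside 17.7% of all genes (10.9% higher, 6.71% lower). Both additions together (the group with Jag1 and FICZ set against TGFβ/IL-34) gave 1 member higher and 1 lower, beside 4.48% (3.12% and 1.37%). Adding Jag1 in the presence of FICZ gave 1 higher, beside 2.02% (1.41% higher, 0.603% lower). The interaction, the FICZ effect with Jag1 minus that without it, called 1 member with a positive sign, beside 1.39% of genes (1.17% positive, 0.221% negative). FICZ without Jag1 called none of the members and 0.0229% of genes, which is 3, although 2284 genes had an unadjusted p under 0.05. With 10 members, 1 call is 10% of the list, so single calls carry little about the list. With so few samples, groups often do not overlap. That held for 46.6% of all tested genes for Jag1 without FICZ and 45.1% for FICZ with Jag1. It held for 54.2% for both, 35.8% for Jag1 with FICZ and 45.7% for FICZ without Jag1. Among the members, 8, 6, 9, 6 and 7 did not overlap, in that order. Where groups are said below to lie apart, this describes the samples only.

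Median log2 fold changes over the 10 members were −0.35 for Jag1 without FICZ and 0.39 for FICZ with Jag1, where the medians over all tested genes were −0.0041 and −0.0083. They were −0.55 for both together, 0.47 for Jag1 with FICZ, −0.71 for FICZ without Jag1 and 1.28 for the interaction, against all-gene medians of 0.0053, 0.05, −0.02 and 0.07. The comparisons share samples. TGFβ/IL-34/Jag1 is the treated group in the first and the control in the second, so their opposite signs for a gene are not independent of each other, and the interaction rests on all 4 groups with TGFβ and IL-34. Itgb2 was called in 4 of the 6 comparisons, Itga4 in 3, Itgb7 in 2 and Itgb5 in 1. Itgam, Itgax, Itgal, Itgae, Itgav and Itgb8 were called in none.

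**Figure D2:**
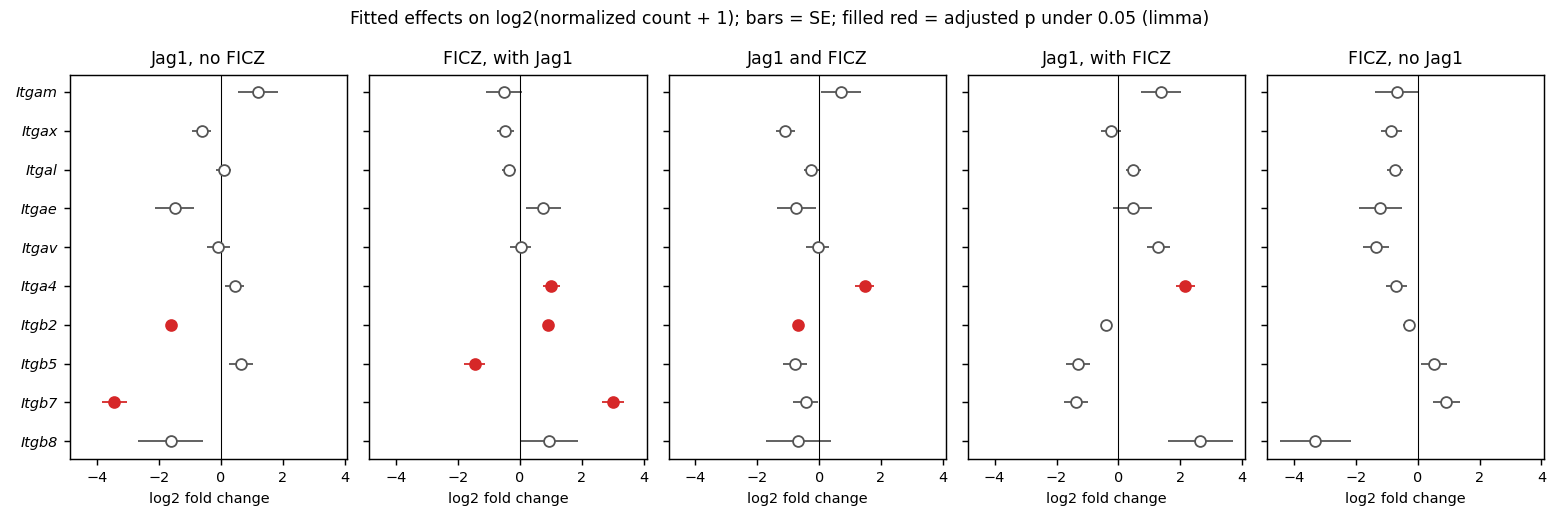
Fitted log2 fold changes (x axis, on log2(normalized count + 1)) with SE bars for the 10 members (y axis) in 5 comparisons. Filled red points passed an adjusted p of 0.05 in limma; Itgb7 moved furthest among the called members, to −3.44 with Jag1 and 3.00 with FICZ added to Jag1.

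The beta 7 chain gene showed the largest called changes of the group. Itgb7 (ENSMUSG00000001281, chr15:102124429-102140379, minus strand, GRCm39 with GENCODE vM39) stood at 4887 and 4995 normalized counts in TGFβ/IL-34, at 12286 and 7210.4 in TGFβ/IL-34/FICZ, at 252, 474 and 785 in TGFβ/IL-34/Jag1, at 4276, 3561 and 3181 in TGFβ/IL-34/Jag1/FICZ and at 1329 in the Jag1 only sample. The 3 TGFβ/IL-34/Jag1 samples lay below every other sample, and the 3 samples with both lay below both TGFβ/IL-34 samples. With Jag1 the level fell from 4941 ± 76.3 (SD, n = 2) to 504 ± 268 (SD, n = 3), 10.8-fold lower on the fitted scale (limma log2 fold change −3.44 ± 0.40 (SE), adjusted p 0.000904).

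Adding FICZ to Jag1 raised Itgb7 to 3673 ± 556 (SD, n = 3), 8.00-fold above TGFβ/IL-34/Jag1 (limma log2 fold change 3.00 ± 0.36 (SE), adjusted p 0.000385). Within experiment codes the differences were −3.36 and −2.67 for Jag1 (2 codes) and 2.02 to 4.08 for FICZ with Jag1 (3 codes) on the log2 scale. Both changes were called under every alternative and with each sample of the groups compared left out in turn. With both additions the level was −0.44 on the log2 scale from TGFβ/IL-34 (limma, adjusted p 0.670), and with Jag1 in the presence of FICZ it was −1.37 (adjusted p 0.108), neither of which passed.

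Itgae encodes the alpha chain that pairs with beta 7 alone. Itgae (ENSMUSG00000005947, chr11:72981409-73039917, plus strand) stood at 14155 and 14793 normalized counts in TGFβ/IL-34, at 2669 and 14733 in TGFβ/IL-34/FICZ, at 2693, 5728 and 8812 in TGFβ/IL-34/Jag1, at 7265, 9113 and 9765 in TGFβ/IL-34/Jag1/FICZ and at 276 in the Jag1 only sample. The 2 TGFβ/IL-34 samples lay above all samples with Jag1, and the 3 TGFβ/IL-34/Jag1 samples spread widely and overlapped those with both. Set against the sample of the same experiment code, Itgae was higher with FICZ added to Jag1 in all 3 codes (log2 differences 0.15 to 1.43). None of its differences passed in the fit over all groups. The value for Jag1 without FICZ was −1.49 ± 0.63, adjusted p 0.228, and that for FICZ with Jag1 was 0.75 with adjusted p 0.433 (limma). With both additions it was −0.74 (adjusted p 0.640), which passed (0.0104) in a fit of only the 2 groups compared.

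Itga4, the alpha chain shared by beta 7 and beta 1, moved in another way. Itga4 (ENSMUSG00000027009, chr2:79085660-79163467, plus strand) stood at 3872 and 3956 normalized counts in TGFβ/IL-34, at 1609 and 3677 in TGFβ/IL-34/FICZ, at 5641, 5924 and 4662 in TGFβ/IL-34/Jag1, at 12785, 11240.5 and 8845 in TGFβ/IL-34/Jag1/FICZ and at 18840.4 in the Jag1 only sample. All 3 samples with Jag1 and FICZ lay above all samples of the other groups that received TGFβ, and the Jag1 only sample lay above them all. The mean was 3914 ± 59.9 (SD, n = 2) in TGFβ/IL-34, 5409 ± 662 (SD, n = 3) in TGFβ/IL-34/Jag1 and 10957 ± 1985 (SD, n = 3) with both.

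With FICZ added to Jag1, Itga4 rose 2.01-fold (limma log2 fold change 1.01 ± 0.27 (SE), adjusted p 0.0285), and within the 3 codes by 0.92 to 1.18 on the log2 scale. That call was lost with no filter on low genes (adjusted p 0.0549) and on leaving out any of 5 of the 6 samples compared (limma, adjusted p 0.0578 to 0.113), and was kept on leaving out replicate 3 of the group with both. With both additions it rose 2.77-fold over TGFβ/IL-34 (limma log2 fold change 1.47 ± 0.31 (SE), adjusted p 0.0258, within codes 1.16 and 1.54), a call lost without replicate 1 or 2 of TGFβ/IL-34 (adjusted p 0.217 and 0.167), without replicate 1 or 2 of the group with both (0.102 and 0.0971), and with no filter (0.0540). With Jag1 in the presence of FICZ it rose 4.45-fold (limma log2 fold change 2.15 ± 0.31 (SE), adjusted p 0.00959, within codes 1.61 and 2.99), which held with each of the 5 samples left out in turn. The rise was 1.56 on the log2 scale without replicate 1 of TGFβ/IL-34/FICZ, and the call was lost in a fit of only the 2 groups compared (adjusted p 0.130). With Jag1 and no FICZ the value was 0.46 (adjusted p 0.495).

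The beta 2 chain gene fell with Jag1 and rose with FICZ added to it, as Itgb7 did, and had the smaller log2 value in both. Itgb2 (ENSMUSG00000000290, chr10:77366086-77401542, plus strand) stood at 5782 and 5210.4 normalized counts in TGFβ/IL-34, at 3918 and 5196 in TGFβ/IL-34/FICZ, at 1711, 1821 and 1905 in TGFβ/IL-34/Jag1, at 3576, 3226 and 3464 in TGFβ/IL-34/Jag1/FICZ and at 2845 in the Jag1 only sample. The 3 TGFβ/IL-34/Jag1 samples lay below all others, and those with both lay below both TGFβ/IL-34 samples. With Jag1 the level fell from 5496 ± 404 (SD, n = 2) to 1812 ± 97.3 (SD, n = 3), 3.03-fold lower (limma log2 fold change −1.60 ± 0.16 (SE), adjusted p 0.000448), and the differences within the 2 codes were −1.67 and −1.45 on the log2 scale.

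With FICZ added to Jag1, Itgb2 rose to 3422 ± 179 (SD, n = 3), 1.89-fold higher (limma log2 fold change 0.92 ± 0.15 (SE), adjusted p 0.00184, 0.82 to 1.06 within the 3 codes). Both of these calls held under every alternative and with each sample of the groups compared left out in turn. With both additions Itgb2 fell below TGFβ/IL-34 (limma log2 fold change −0.68 ± 0.16 (SE), adjusted p 0.0445, within codes −0.84 and −0.59), but this call was lost with a block for the replicate number, either experiment code or the flow cell (adjusted p 0.0727 to 0.0915) and on leaving out any 1 of the 5 samples compared (0.113 to 0.365). The interaction was 1.20 ± 0.23, adjusted p 0.0430 (limma), and it was lost with no filter (adjusted p 0.0584), with the replicate block (0.0581), with either code block (0.0974 and 0.0565) and on leaving out any sample except the 2 of TGFβ/IL-34/FICZ (0.0675 to 0.215). FICZ without Jag1 gave −0.28 (adjusted p 0.367) and Jag1 with FICZ gave −0.40 (adjusted p 0.190).

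The 3 alpha chains of beta 2 were called in no comparison. Itgax (ENSMUSG00000030789, chr7:127728668-127749829, plus strand) stood at 28336 and 25557 normalized counts in TGFβ/IL-34, at 9901 and 22385 in TGFβ/IL-34/FICZ, at 14031, 18152 and 21088 in TGFβ/IL-34/Jag1, at 12167, 11791 and 14023 in TGFβ/IL-34/Jag1/FICZ and at 4631 in the Jag1 only sample. Both TGFβ/IL-34 samples lay above all others, and the 3 samples with Jag1 and FICZ lay just below those of TGFβ/IL-34/Jag1 with no overlap. Within the 3 codes the log2 differences for FICZ added to Jag1 were −0.62 to −0.21. The value for both additions against TGFβ/IL-34 was −1.09 with adjusted p 0.0805, which passed (0.00146) in a fit of only the 2 groups compared, and those for Jag1 without FICZ and FICZ with Jag1 were −0.62 (0.330) and −0.47 (0.300, limma).

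Itgam (ENSMUSG00000030786, chr7:127661808-127717753, plus strand) stood at 3959.6 and 4628 normalized counts in TGFβ/IL-34, at 1245 and 5779 in TGFβ/IL-34/FICZ, at 4862, 9886 and 19741 in TGFβ/IL-34/Jag1, at 5453, 6316 and 9617 in TGFβ/IL-34/Jag1/FICZ and at 4963 in the Jag1 only sample. It spread more widely than the other members within TGFβ/IL-34/Jag1, where its 3 samples spanned those of TGFβ/IL-34/Jag1/FICZ, and its 2 samples with FICZ alone lay on either side of those of TGFβ/IL-34. The Jag1 value was 1.20 (adjusted p 0.376), and it passed only with a block for the experiment code of the labels (log2 fold change 1.67, adjusted p 0.0454). Itgal (ENSMUSG00000030830, chr7:126895432-126934320, plus strand) stood at 2809.9 and 2724 normalized counts in TGFβ/IL-34, at 1385 and 2023 in TGFβ/IL-34/FICZ, at 2250.4, 3791 and 3034 in TGFβ/IL-34/Jag1, at 2129, 2714 and 2178 in TGFβ/IL-34/Jag1/FICZ and at 1091 in the Jag1 only sample. The TGFβ/IL-34/FICZ samples lay below the other samples with TGFβ, both TGFβ/IL-34 samples lay just above those with Jag1 and FICZ, and TGFβ/IL-34/Jag1 overlapped both of these groups. The Jag1 value was 0.10 (adjusted p 0.903, limma), and the differences for FICZ added to Jag1 were −0.48 to −0.08 within the 3 codes.

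Itgav, the common chain of the vitronectin receptors and of the TGFβ-activating integrins, was not called in any comparison. Itgav (ENSMUSG00000027087, chr2:83554403-83637260, plus strand) stood at 1653 and 1629 normalized counts in TGFβ/IL-34, at 379 and 1100.3 in TGFβ/IL-34/FICZ, at 1280.2, 1354 and 2176 in TGFβ/IL-34/Jag1, at 1579, 1523 and 1659.7 in TGFβ/IL-34/Jag1/FICZ and at 2877 in the Jag1 only sample. Apart from the 2 samples of TGFβ/IL-34/FICZ, which were below all others, the groups with TGFβ overlapped. The log2 values were −0.08 for Jag1 without FICZ, 0.03 for FICZ with Jag1 and −1.34 for FICZ without Jag1 (limma, adjusted p 0.954, 0.973 and 0.285).

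Of the beta chains of alpha v, Itgb5 fell with FICZ added to Jag1. Itgb5 (ENSMUSG00000022817, chr16:33649988-33771137, plus strand) stood at 879 and 794 normalized counts in TGFβ/IL-34, at 2178 and 659 in TGFβ/IL-34/FICZ, at 1288, 1352 and 1335 in TGFβ/IL-34/Jag1, at 512, 422 and 515 in TGFβ/IL-34/Jag1/FICZ and at 612 in the Jag1 only sample. The 3 samples with Jag1 and FICZ lay below every other sample, and those of TGFβ/IL-34/Jag1 lay above both TGFβ/IL-34 samples. The mean went from 1325 ± 33.2 (SD, n = 3) to 483 ± 52.7 (SD, n = 3), 2.75-fold lower (limma log2 fold change −1.46 ± 0.35 (SE), adjusted p 0.0151), and the differences within the 3 codes were −1.68 to −1.33 on the log2 scale. The call was lost on leaving out replicate 2 of the group with both (adjusted p 0.0665), and on leaving out replicate 3 of TGFβ/IL-34/Jag1 (0.0502). For Jag1 without FICZ the value was 0.66 (limma, adjusted p 0.418), which passed (0.0239) in a fit of only the 2 groups compared, as did that for both additions (−0.80, 0.00932, against 0.323 over all groups).

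Itgb8 (ENSMUSG00000025321, chr12:119121748-119202584, minus strand) was the lowest of the members, at 50.3 and 47.0 normalized counts in TGFβ/IL-34, at 0 and 24.1 in TGFβ/IL-34/FICZ, at 10.2, 19.6 and 17.5 in TGFβ/IL-34/Jag1, at 24.0, 31.0 and 37.0 in TGFβ/IL-34/Jag1/FICZ and at 71.1 in the Jag1 only sample. The TGFβ/IL-34 samples and the Jag1 only sample were above the rest, but replicate 1 of TGFβ/IL-34/FICZ was at 0, where up to 3 reads would go unseen. The values were −1.62 for Jag1 without FICZ and 0.95 for FICZ with Jag1, neither of which passed (limma, adjusted p 0.483 and 0.571). At so few reads per sample these levels carry a relative counting error larger than that of the other members.

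FICZ without Jag1 was the comparison in which 1 sample decided the values. Replicate 1 of TGFβ/IL-34/FICZ lay below replicate 2 for Itgam, Itgax, Itgal, Itgae, Itgav, Itga4, Itgb2 and Itgb8 and above it for Itgb5 and Itgb7. Replicate 1 came from code AA45 and, by the string read as the flow cell, from another flow cell than replicate 2, from code AA47. The code, the flow cell and the culture cannot be told apart here. With both samples the log2 values ran from −3.31 for Itgb8 to 0.93 for Itgb7, and no member passed.

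Without replicate 1, no member was called and the values were 0.43 for Itgam, 0.03 for Itgae, −0.34 for Itgb5 and 0.55 for Itgb7. Without replicate 2, 8 members were called along with 5718 of all genes, and the same sample then stood alone for its group. Jag1 with FICZ rests on the same 2 samples. There 8 members and 5820 genes were called without replicate 2, and Itgae moved from 0.46 to −0.77 without replicate 1. In the interaction, 7 members and 5488 genes were called without replicate 2.

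The Jag1 only sample shows the members without TGFβ and IL-34, from 1 library and with no test. It lay below all 10 other samples for Itgax, Itgal and Itgae and above all of them for Itgav, Itga4 and Itgb8, so 6 of the 10 members were outside the range of the others, beside 38.2% of all tested genes (20.1% above, 18.1% below). Itgae, at 276 normalized counts, was 20.8-fold below the mean of TGFβ/IL-34/Jag1. Itgax was 3.83-fold and Itgal 2.77-fold below that mean. Itga4 was 3.48-fold, Itgb8 4.52-fold and Itgav 1.79-fold above it. That mean covers all experiment codes. The TGFβ/IL-34/Jag1 sample of the same code stood at 2693 for Itgae, 14031 for Itgax and 2250.4 for Itgal. Its values were 5641 for Itga4, 10.2 for Itgb8 and 1280.2 for Itgav. Itgam, Itgb2, Itgb5 and Itgb7 were within the range of the other samples. The Jag1 only sample also had the lowest Epcam value, as given above.

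Since 1 alpha chain can use different beta chains, the ratio of the normalized counts of an alpha and a beta gene was taken within each sample. These pairs are the known partners, the choice to show these ratios was made after the levels were seen, and they are given with no test. A ratio compares samples and not the amounts of the chains, because gene lengths differ. Itgae over Itgb7 was 2.90 and 2.96 in TGFβ/IL-34, 10.7 to 12.1 in TGFβ/IL-34/Jag1 and 1.70 to 3.07 in TGFβ/IL-34/Jag1/FICZ. In TGFβ/IL-34/FICZ it was 0.217 and 2.04, and it was 0.208 in the Jag1 only sample. The TGFβ/IL-34/Jag1 samples were thus the only ones above 3.07.

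Itga4 over Itgb7 was 0.792 in both TGFβ/IL-34 samples, 0.131 and 0.510 in TGFβ/IL-34/FICZ, 5.94 to 22.4 in TGFβ/IL-34/Jag1, 2.78 to 3.16 in TGFβ/IL-34/Jag1/FICZ and 14.2 in the Jag1 only sample. All samples with Jag1 exceeded all those without it. Itgal over Itgb2 was 0.486 and 0.523 in TGFβ/IL-34, 0.354 and 0.389 with FICZ, 1.32 to 2.08 with Jag1 and 0.595 to 0.841 with both. Itgax over Itgb2 was 4.90 in both TGFβ/IL-34 samples, 8.20 to 11.1 with Jag1 and 3.40 to 4.05 with both. The beta 2 chain gene was thus lowest relative to both alpha genes in TGFβ/IL-34/Jag1.

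For the alpha v pair the split lay elsewhere. Itgav over Itgb5 was 1.88 and 2.05 in TGFβ/IL-34, 0.174 and 1.67 with FICZ, 0.994 to 1.63 with Jag1, 3.09 to 3.61 with both and 4.70 in the Jag1 only sample. The samples with Jag1 and FICZ did not overlap any other group with TGFβ.

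**Figure D3:**
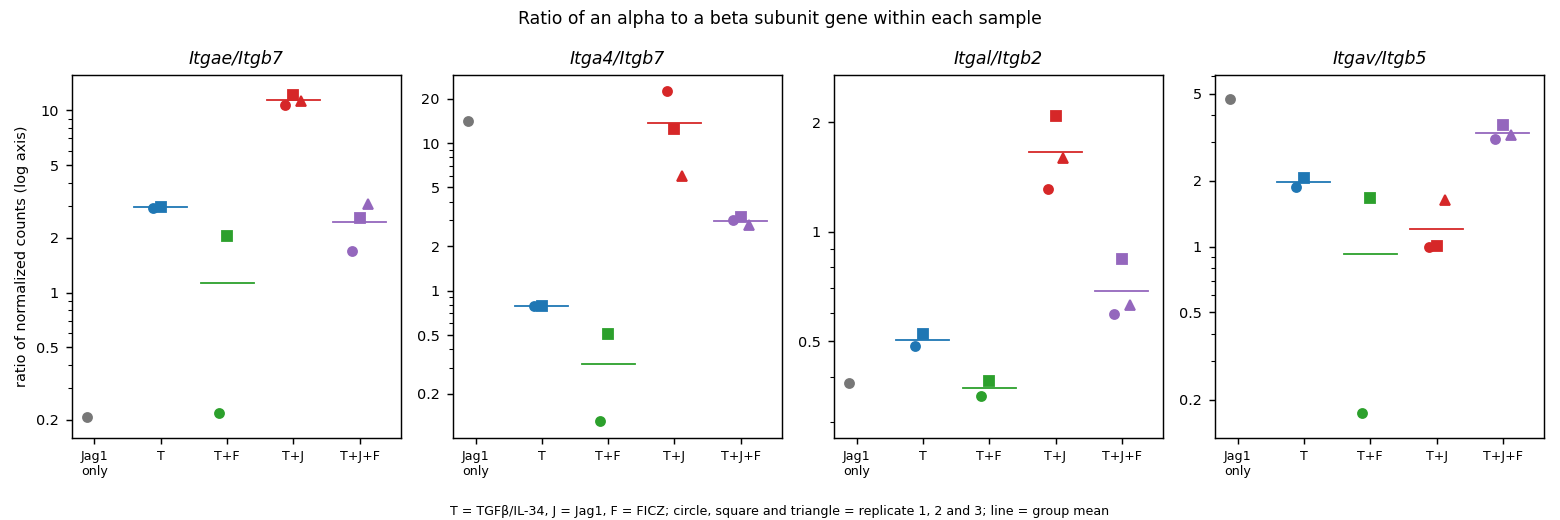
Ratio of normalized counts of an alpha to a beta subunit gene (y axis, log scale) in each of 11 samples by culture group (x axis, T for TGFβ/IL-34, J for Jag1, F for FICZ). Symbols are samples and lines group means; the 3 TGFβ/IL-34/Jag1 samples are at 10.7 to 12.1 for Itgae over Itgb7, above all other samples.

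The remaining alpha and beta subunit genes, 17 by a list that left out the members, give the setting. Of these, 13 passed the filter on low values and Itga8 was at 0 in all samples. Jag1 without FICZ called 1 higher and 2 lower, FICZ with Jag1 4 higher and 1 lower, both together 3 higher, Jag1 with FICZ 2 higher, the interaction 2 positive, and FICZ without Jag1 none. Of all tested genes, 6.6%, 17.7%, 4.48%, 2.02%, 1.39% and 0.0229% were called, in the same order. Their median log2 fold changes for Jag1 without FICZ and FICZ with Jag1 were 0.10 and 0.90, beside all-gene medians near 0.

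Itgb1, the beta 1 chain that is the other partner of Itga4, stood at 10295 to 14895 normalized counts in all samples. It was called in no comparison, with log2 values of 0.10 for Jag1, −0.02 for FICZ with Jag1, 0.08 for both, 0.13 for Jag1 with FICZ, −0.06 for FICZ without Jag1 and 0.04 for the interaction. Itgb3, which pairs with alpha v and with Itga2b, stood at 21.4 and 26.6 in TGFβ/IL-34, at 40.1 and 29.6 with FICZ, at 76.0, 47.5 and 37.9 with Jag1, at 162, 168 and 163 with both and at 440.3 in the Jag1 only sample. The samples with both lay above all others with TGFβ. Itgb3 rose with both additions (limma, 2.73 ± 0.36, adjusted p 0.00456), with FICZ added to Jag1 (1.65 ± 0.33, adjusted p 0.00593) and with Jag1 added to FICZ (2.22 ± 0.36, adjusted p 0.0168). Its values for Jag1 and FICZ alone were 1.08 and 0.51, and that for the interaction was 1.14, none of which passed. The call with both was lost without replicate 1 of TGFβ/IL-34 (adjusted p 0.0795), and that of Jag1 added to FICZ without any 1 of the samples with both (0.0731 to 0.0810) and in a fit of only its groups (0.0970).

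Itga2b, the alpha chain of the platelet fibrinogen receptor, which mast cells also express, stood at 1924 to 2151 in TGFβ/IL-34, 4432 to 5322 with FICZ, 509 to 543 with Jag1 and 4423 to 5568 with both. It fell with Jag1 (limma, −1.96 ± 0.17, adjusted p 0.000150), rose with FICZ added to Jag1 (3.21 ± 0.15, adjusted p 1.44e-06) and was higher with both than with neither (1.25 ± 0.17, adjusted p 0.00450). Itga1, a collagen receptor chain, had the same signs, at −3.36 (0.00779) with Jag1 and 3.43 (0.00152) with FICZ added to it, and the Jag1 call was lost without either TGFβ/IL-34 sample (adjusted p 0.0722 and 0.0861). The Itga2b call with both was lost without replicate 1 of TGFβ/IL-34 (0.0795). Of the platelet genes, Pf4 and Ppbp were named after their values were seen. Pf4 stood at 29.0 and 106 in TGFβ/IL-34, 397 and 63.8 with FICZ, 0 to 18.3 with Jag1 and 8.46 to 21.0 with both. Ppbp stood at 32.0 and 74.7, 111 and 59.8, 12.9 to 32.9 and 24.0 to 32.7 in the same order. Both thus overlapped between the groups with Jag1 and with both, where Itga2b did not. Between TGFβ/IL-34 and TGFβ/IL-34/Jag1, Pf4 was lower with Jag1 without overlap, as Itga2b was, while Ppbp overlapped. The part of cells with these platelet genes in the Itga2b levels was not tested.

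Itgad, a further partner of beta 2, rose with FICZ added to Jag1 from between 5.68 and 34.2 to between 84.5 and 121 (limma, 2.60 ± 0.55, adjusted p 0.00834), and Itga3, a laminin receptor chain, fell from between 483 and 601 to between 127 and 187 (−1.83 ± 0.23, adjusted p 0.000473). Itga6, another laminin receptor chain, was higher with Jag1 (0.78, adjusted p 0.0265), with both (0.82, 0.0285) and with Jag1 added to FICZ (0.99, 0.0240, limma). The first 2 of these calls were lost on leaving out any 1 of the samples compared (adjusted p 0.0575 to 0.227), and the last without any 1 of the samples with both (0.0833 to 0.106) and in a fit of only its groups (0.180). The Jag1 only sample lay above all others for Itga6 (3387), Itgb3, Itgb4 and Itgb2l and below all for Itga2b (472) and Itgad (0). It was also above all for Itga9 (11.2), which did not pass the filter on low values. Of all tested genes, 38.2% were outside the range of the other samples.

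**Figure D4:**
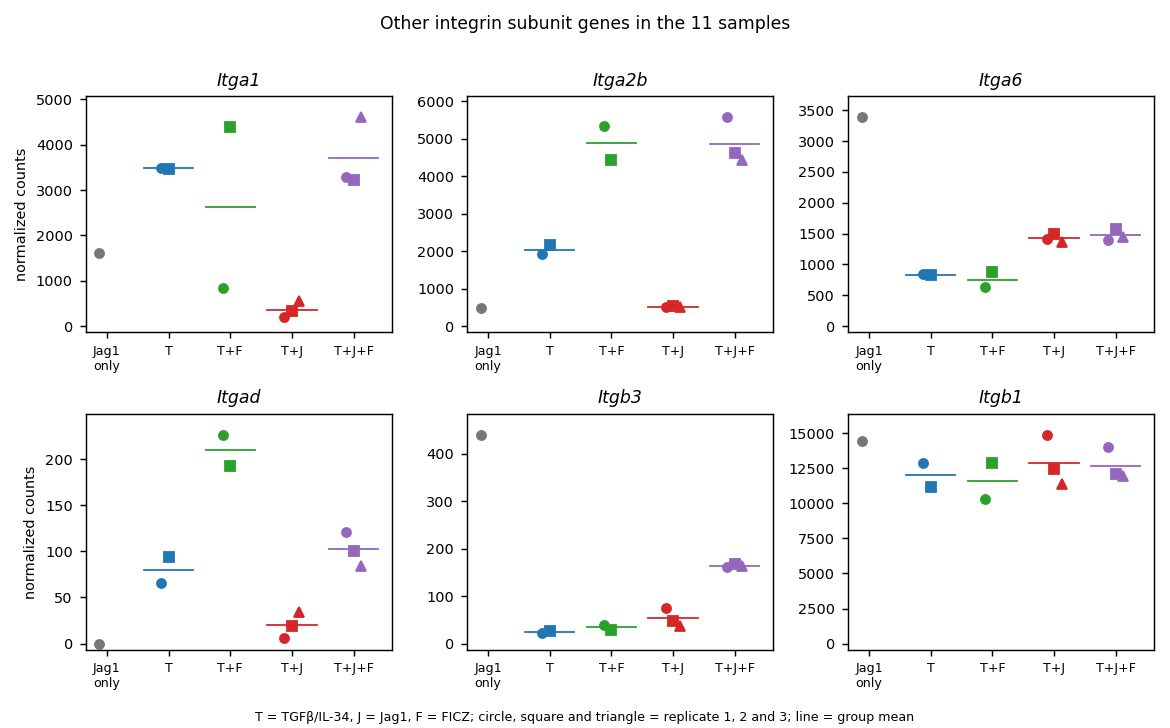
Normalized counts (y axis, linear, own scale per gene) of 6 other integrin subunit genes in 11 samples by culture group (x axis, T for TGFβ/IL-34, J for Jag1, F for FICZ). Symbols are samples and lines group means; Itgb1 stays between 10295 and 14895 in all samples, while the 3 samples with Jag1 and FICZ are the highest with TGFβ for Itgb3.

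Integrins bind ligand tightly once talin and kindlin reach the beta tail, a step driven by the small GTPase Rap1. Of 27 genes for these activators and adaptors 26 were tested, and Jag1 without FICZ called 1, FICZ with Jag1 4 higher and 4 lower, both together 1 higher and 1 lower, and the other comparisons none. Beside these counts stood 6.6%, 17.7% and 4.48% of all tested genes. The median log2 fold change for FICZ with Jag1 was −0.0055, beside −0.0083 over all genes. Rasgrp2, the calcium-dependent activator of Rap1, rose most with FICZ added to Jag1, from between 9.06 and 27.6 to between 871 and 1399.9 (limma, 5.84 ± 0.54, adjusted p 8.79e-05), and was higher with both than with neither (3.87, adjusted p 0.00751, but 0.122 without replicate 1 of TGFβ/IL-34). Lims1, of the complex at the beta tail, and Cd47, a partner of alpha v beta 3, rose with FICZ added to Jag1 by 0.88 and 0.85.

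Parvb, of the same complex as Lims1, fell with FICZ added to Jag1 (−2.77, adjusted p 0.000296) and was lower with both (−2.02, 0.0125, limma), the latter lost without 4 of the 5 samples in turn, both TGFβ/IL-34 samples among them (0.0576 to 0.167). Rassf5, the Rap1 effector that activates LFA-1, rose with Jag1 (1.19, adjusted p 0.0145) and fell with FICZ added to it (−1.38, 0.00146). Its call with Jag1 was lost without either TGFβ/IL-34 sample (0.0963 and 0.163) or replicate 1 of TGFβ/IL-34/Jag1 (0.0518). Ptk2b and Rap1a fell by 0.79 and 0.64 with FICZ added to Jag1, calls lost on leaving out 3 and 4 of the 6 samples in turn (adjusted p 0.0520 to 0.0686 and 0.0719 to 0.103). The eighth gene called was Skap1, at under 50 normalized counts. Talin (Tln1) and kindlin-3 (Fermt3), both named after their values were seen, stood at 8798 to 18878 and at 3652 to 7139 in the samples other than Jag1 only and were not called.

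The ligands of these integrins can be made by the same cells. Whether the ligand RNA here came from the sorted cells or from OP9 stroma was not tested. Of 18 ligand genes 12 were tested. FICZ added to Jag1 called 5 higher and 1 lower, both together 2 higher, Jag1 without FICZ 1 lower (Icam2, at under 50 normalized counts), and the other comparisons none. The shares of all tested genes called were 17.7%, 4.48% and 6.6% in that order. That Icam2 call (limma, adjusted p 0.0493) was lost with quantile normalization, a pseudocount of 4, no filter, a fit of only its groups or any block (0.0512 to 0.108), and without 4 of the 5 samples in turn (0.101 to 0.337). Their median log2 fold change for FICZ with Jag1 was 1.05. Fibronectin (Fn1), a ligand of alpha 4 beta 1 and alpha v integrins, rose with FICZ added to Jag1 from between 258 and 581 to between 1446 and 2294 (limma, 2.43 ± 0.33, adjusted p 0.000751). Osteopontin (Spp1) rose from between 674 and 1685 to between 3861 and 10016 (2.57 ± 0.49, adjusted p 0.00511). Vcam1, the ligand of alpha 4 beta 1, rose by 2.26 (adjusted p 0.0397), a call lost with no filter (0.0769) and on leaving out 5 of the 6 samples in turn (0.0627 to 0.163).

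Icam2 was the fifth gene higher with FICZ added to Jag1 (limma, adjusted p 0.00103), from between 0 and 2.50 to between 28.2 and 69.7 normalized counts. Of the 2 secreted bridges between alpha v integrins and apoptotic cells, Mfge8 fell with FICZ added to Jag1 (−2.22 ± 0.30, adjusted p 0.000804) and Edil3 rose (1.99 ± 0.36, adjusted p 0.00383, limma). Edil3 was also higher with both than with neither (1.87, adjusted p 0.0310), as was Fn1 (1.51, 0.0470). Both of these calls were lost on leaving out any 1 of the 5 samples compared (0.0741 to 0.372) and with no filter (0.0541 and 0.0851).

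E-cadherin (Cdh1), the ligand of Itgae with Itgb7, stood at 15967 and 15057 in TGFβ/IL-34, at 6655 and 11287 with FICZ, at 8024, 12669.7 and 17750.5 with Jag1, at 8209, 7817 and 10954 with both and at 4822 in the Jag1 only sample. It was named after its values were seen and was called in no comparison. The MAdCAM-1 gene (Madcam1) was at 0 in all samples.

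The latent TGFβ complex is the substrate of the alpha v integrins. All 9 of its genes were tested, with a median log2 fold change of 0.30 for Jag1 without FICZ and 0.46 for FICZ with Jag1. Lrrc32, which holds latent TGFβ on the cell surface, rose with Jag1 from between 63.0 and 73.3 to between 686 and 983 (limma, 3.50 ± 0.34, adjusted p 0.000380), and with FICZ added it fell to between 80.1 and 167 (−2.76 ± 0.31, adjusted p 0.000257). Tgfb1 rose by 0.64 with FICZ added to Jag1 (adjusted p 0.00972, limma), a call lost without replicate 1 of the group with both (0.0516). With both additions Nrros, the myeloid counterpart of Lrrc32, was higher than with neither (0.76, adjusted p 0.0327) and Ltbp3, a matrix anchor of latent TGFβ, was lower (−1.50, 0.0124). With Jag1 added to FICZ, Lrrc32 was higher (1.59, 0.0477) and Ltbp3 lower (−1.41, 0.0271). FICZ without Jag1 and the interaction called none of the 9, beside 0.0229% and 1.39% of all tested genes. The shares for the other comparisons were 6.6% for Jag1 without FICZ, 17.7% for FICZ with Jag1, 4.48% for both and 2.02% for Jag1 with FICZ. The Nrros call with both was lost without any 1 of the 5 samples compared (limma, adjusted p 0.0752 to 0.322), and that of Ltbp3 without any but replicate 3 of the group with both (0.0577 to 0.167). With Jag1 added to FICZ, the calls of Lrrc32 and Ltbp3 were lost without any 1 of the samples with both or replicate 1 of TGFβ/IL-34/FICZ (0.0723 to 0.145 and 0.0816 to 0.110) and in a fit of only the 2 groups (0.246 and 0.153). That of Lrrc32 was also lost with quantile normalization, no filter, the replicate block, either code block or the flow cell block (0.0614 to 0.0923).

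Summed levels of marker genes of other cells differed between the same groups as the integrins. The summed level of 8 mast cell and basophil genes, of which Fcer1a was at 0 in all samples, was 684 to 902 in TGFβ/IL-34/Jag1, where Itgb7 and Itgb2 were lowest. It was 5256 to 5348 in TGFβ/IL-34, 7702 to 11225 with FICZ, 8202 to 12039 with both and 6398 in the Jag1 only sample. Mast cells are known to express Itgb7, Itga4 and Itga2b. The part of such cells in the results for these genes was not tested.

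The sum of 5 granulocyte progenitor genes was 296 to 464 in TGFβ/IL-34, 75.0 to 255 with Jag1, 2221 to 4127 with FICZ and 4424 to 7344 with both, the last being the group where Itga4 was highest among those with TGFβ. The TGFβ/IL-34/FICZ sample at 4127 had the lowest Itga4 of all (1609), and the Jag1 only sample, at 433, the highest (18840). Within groups this sum had the order of Itga4 in TGFβ/IL-34 only. The part of such cells in the Itga4 levels was not tested. The sum of 5 monocyte genes was 172 to 344 with Jag1 against 1554 to 3539 in TGFβ/IL-34 and 3884 to 4577 with both. The sum of 10 genes of OP9 stroma, of which Dcn and Lum were at 0 in all samples, was 7.58 to 21.1 and 23.4 to 38.0 without Jag1, 360.3 to 989 with Jag1, 705 to 4309 with both and 651 in the Jag1 only sample. It was higher in every sample with Jag1 than in those without, as was Itga4. Within TGFβ/IL-34/Jag1 the stroma sum had the order of Itga4. With both it had the reverse order, at 705, 1652 and 4309 by replicate where Itga4 stood at 12785, 11240.5 and 8845. The part of stroma in the results for Itga4, Itgb3, Fn1, Vcam1 and Edil3 was not tested. The sum of 7 Langerhans cell genes was highest with Jag1, at 325773 to 333912, against 156224 to 158766 in TGFβ/IL-34, 81119.6 to 95823 with FICZ and 76711 to 136599 with both. Most of the sum with Jag1 was Mfge8, also among the ligands above, with a mean of 266443 there. Mfge8 ranged from 39376 to 275951 over the samples with TGFβ, so the sum says little about the rest of this list. T cell genes (5) summed to 6.94 to 190.4.

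Itgae is known as a gene of cDC1, a dendritic cell type. The sum of 5 other cDC1 genes was 10463 and 9907 in TGFβ/IL-34, 1093 and 7963 with FICZ, 2651, 6170.1 and 10570.3 with Jag1, 4856, 5873 and 7347 with both and 2087 in the Jag1 only sample, by replicate. It had the order of Itgae over the samples of each group except TGFβ/IL-34. Nearly all of it was Wdfy4, at 1089 to 10555 over all samples, whereas the defining genes Xcr1 and Clec9a lay at 0 to 22.0 and 0 to 21.5, and Cadm1 and Tlr3 at 0 to 12.9 and 0 to 30.1. The sum of 7 macrophage genes was 18647 and 17220.3 in TGFβ/IL-34, 8043 and 16434 with FICZ, 17585, 25103 and 33849 with Jag1, 11762, 9011 and 13319.6 with both and 7208 in the Jag1 only sample. Macrophages express Itgam, and the sum had the order of Itgam in the groups with Jag1 alone and FICZ alone but not in those with neither or both. The part of such cells in the levels of Itgae and Itgam was not tested.

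**Figure D5:**
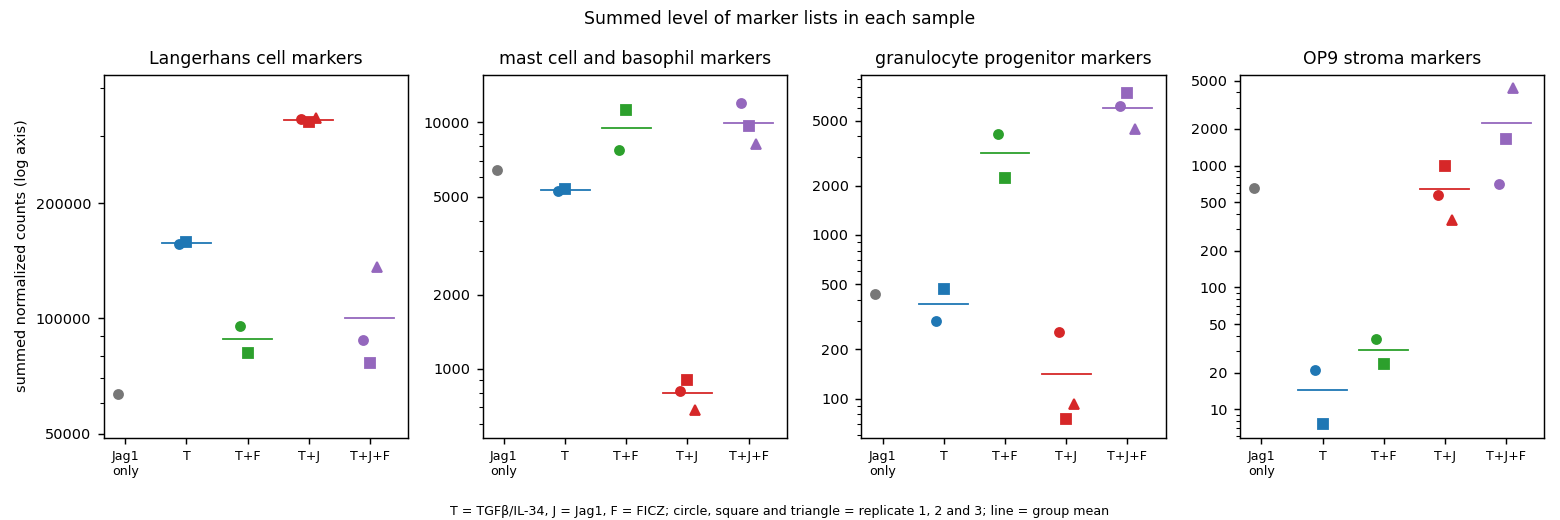
Summed normalized counts of 4 marker lists (y axis, log scale) in each of 11 samples by culture group (x axis, T for TGFβ/IL-34, J for Jag1, F for FICZ). Symbols are samples and lines group means; the mast cell and basophil sum is lowest, at 684 to 902, in the 3 TGFβ/IL-34/Jag1 samples.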

How the data were processed

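RNA was measured by bulk sequencing in 11 samples of 5 groups, taken from the sample labels. The authors quantified reads with salmon on Ensembl GRCm39 transcripts, summed them to genes with tximport and scaled them with DESeq2, with versions not given in the sources used here. The deposited values are a normalized signal per gene, in the text called normalized counts. Their low values were whole multiples of 1 step (tolerance 0.1, up to 15 steps) in 81.6% to 98.5% of cases for genes with a single transcript and in 51.6% to 57.9% over all genes. Whole reads were therefore not recovered, and limma stood in for the count test that the study names. The step gave an estimated 20.6 to 24.2 M reads per sample.

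The filter kept 13095 of 21860 genes, those that reached a value of 10 in 2 or more samples. Log2(value + 1) was fitted in R 4.3.3 with limma 3.58.1 (trend, 5 group means, 6 residual degrees of freedom), and 6 two-sided contrasts were adjusted over all tested genes at a threshold of 0.05. The members, the pathway and marker lists and the tests were chosen with earlier results of these data known. Named genes were the 10 members, Itgb1 and Itgb3, and up to 4 genes per list, contrast and direction with the largest change among those called whose higher group had a mean of 50 or more. Of the genes, 21676 matched GENCODE vM39 (GRCm39) and 50 had no symbol. All columns were mapped to samples. A file of conditions matched the labels in 11 of 11 samples and gave another experiment code for 1, replicate 1 of TGFβ/IL-34.

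In the contrast of FICZ with Jag1, samples of the same replicate number share an experiment code. Their deviations from the group means correlated across genes at 0.153, 0.122 and 0.166. In Jag1 with FICZ the same numbers also share a code, but the correlations there were 0.059 and 0.058. The main fit held no term for pairs in any contrast, so its p-values are unpaired. Pairing entered only the differences within experiment codes and the fits with a block. The correlations in the other contrasts were −0.01 to 0.05. The procedure was tested on simulated data. Tried as alternatives were no filter, pseudocounts of 0.5 and 4, quantile normalization and a fit of only the groups compared. So were blocks for the replicate number, each experiment code and the flow cell, and the longest coding transcript as gene length. Each sample of the groups compared was also left out in turn. A sample left alone in its group was assumed to vary like the other groups. The sum of 1 marker list is not reported here.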

Additional observations from a re-analysis of the deposited data

Results flagged for a closer look

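The FICZ effect differed between cultures with and without Jag1 (interaction test, limma) for 1 of the leukocyte integrin genes and for 2 of the other subunit genes. For Itgb2 the difference on the log2 scale was 1.20 (adjusted p 0.0430), with values of 0.92 with Jag1 and −0.28 without it. For Itga1 it was 4.28, with 3.43 and −0.85, and for Itga2b it was 1.96, with 3.21 and 1.25. The Itga2b call was lost without replicate 2 of TGFβ/IL-34 (adjusted p 0.0745) and held with each of the other 9 samples left out in turn. The Itga1 call was kept only on leaving out a TGFβ/IL-34/FICZ sample, and was also lost with no filter (0.0956) and with a block for the experiment code of the labels (0.0621).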

How the results depend on the processing

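Of 60 results for the members (10 genes in 6 contrasts), 44 kept their direction and side of the threshold in all 9 settings that keep every sample, and 20 in every setting. In the counts of members called, both additions together gave 1 with no filter, 1 with the replicate block, 1 with either code block and 1 with the flow cell block, and 5 in a fit of only the groups compared. The interaction gave 0 with no filter, 0 with the replicate block and 0 with either code block, and Jag1 with FICZ gave 0 in a fit of only its groups. Samples of the same replicate number share an experiment code for FICZ with Jag1 and for Jag1 with FICZ, and the replicate block changed no member's call in either. Among the list genes it lost the call of Lrrc32 for Jag1 with FICZ (0.0904). Over all genes, a fit of only the groups compared called 3598 for FICZ with Jag1, 2807 for both together and 0 for Jag1 with FICZ (1807 at an unadjusted p under 0.05). The interaction gave 74 with no filter and 44 with the block for the labels' code. FICZ without Jag1 gave 5 with quantile normalization, 1 with that block and 0 with the other blocks, the replicate block included, or only its groups. With the longest coding transcript as length, 6 members kept their place in the order per kilobase by the mean over the 5 groups. Signs turned with the block for the labels' code for Itgav with Jag1 (0.12), Itgam with FICZ alone (0.14), Itgav with both (0.15) and Itgam in the interaction (−0.64). They turned with the other code block for Itgal with Jag1 (−0.052), and with the flow cell block for Itgav and Itgb8 with both (0.17 and 0.087) and Itgam in the interaction (−0.039). None of these 8 passed, and the cause was not tested. With each sample left out in turn, the members called ranged over 2 to 2 for Jag1 without FICZ, 2 to 4 for FICZ with Jag1, 0 to 1 for both, 1 to 8 for Jag1 with FICZ, 0 to 8 for FICZ without Jag1 and 0 to 7 for the interaction, and all genes called over 195 to 714, 1387 to 1821, 35 to 308, 54 to 5820, 0 to 5718 and 9 to 5488. The highest counts of the last 3 came without replicate 2 of TGFβ/IL-34/FICZ. Log2 values whose sign turned ranged over −0.083 to 0.29 for Itgal and −0.32 to 0.065 for Itgav with Jag1, −0.11 to 0.27 for Itgav with FICZ added to Jag1, −0.83 to 0.35 for Itgax and −0.77 to 1.70 for Itgae with Jag1 added to FICZ, −1.78 to 0.43 for Itgam, −2.44 to 0.026 for Itgae and −0.34 to 1.38 for Itgb5 with FICZ alone, and −0.94 to 1.28 for Itgam and −0.21 to 0.97 for Itgax in the interaction. Itgb8 had fewer than 100 reads in every sample.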
